A study of Mus musculus with 4 samples.

Results

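Langerin, encoded by Cd207, was examined here together with 9 other C-type lectin genes of the mouse liver: Cd209a, Cd209b, Clec4g, Clec1b, Clec2d, Clec2h, Asgr1, Asgr2 and Colec11. These 10 genes were taken by symbol from GENCODE release M21 out of the 37315 gene identifiers counted, and all 10 had a row. They were chosen by symbol once the KO over WT fold changes of these same libraries were known, Cd207 for its large rise, so their differences between genotypes are a description of these libraries and no count over the 10 genes is evidence of its own. The data are read counts from liver tissue of C57BL/6 mice aged 23 weeks, with 2 libraries of wild-type (WT) liver and 2 of Fto knockout (KO) liver. Fto encodes an enzyme that removes methyl groups from RNA, and the comparison asks which liver transcripts differ when it is disrupted. The labels name neither the Fto allele, the cells in which it is disrupted, the sex of the mice nor the animal behind each library. P-values therefore rest on the spread among the 4 libraries, part or all of which may be technical.

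C-type lectins share a protein fold that in many members binds sugars in a calcium-dependent way. Some sit on the cell surface and take up glycoproteins or microbes, some are soluble and start complement, and some have lost sugar binding and recognise proteins on other cells. The liver holds several of these roles side by side. Hepatocytes clear glycoproteins that have lost their sialic acid, sinusoidal endothelial cells and Kupffer cells (the resident macrophages) scavenge from the blood, and dendritic cells sample antigen. Langerin is best known from Langerhans cells of the skin and from some dendritic cells, where it builds the rod-shaped Birbeck granules.

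The libraries held between 39549592 and 44689114 counts, so 1 read stood for between 0.0216 and 0.0263 CPM (counts scaled by library size and by TMM, a method that corrects for differences in library composition). Fto itself had 1749 and 1292 WT reads against 607 and 486 KO reads, lower in both KO libraries, in the direction of the labels (log2 fold change -1.57 with an SE of 0.195, adjusted p = 0.0109 in edgeR). Of 13836 genes that passed a filter on low counts, 264 were called at an adjusted p under 0.05.

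Of the 10 lectin genes only Cd207 passed that test, among the 9 that could be tested, and it was higher in KO; across all tested genes 1.91% were called in either direction and 0.961% as higher in KO. In both KO libraries 3 of the 9 tested genes (Cd207, Cd209b and Clec2h) stood above both WT libraries, and none stood below, where 21.6% and 20.4% of all tested genes did so. Cd209a had too few reads to be tested. Cd209b passed the filter only through its KO libraries, where it is higher. The other 6 genes had overlapping genotypes.

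The promoter of Cd207 is shown with those of Clec2h, whose genotypes also did not overlap, and of Clec4g, whose genotypes had nearly equal means, so that the start of the gene that rose can be read beside genes that did not pass the test. Each is the 250 bases before the RefSeq start site (GRCm38.p6), 5′ to 3′ on the gene's strand. The Cd207 window is chr6:83677858-83678107 (minus strand), that of Clec2h chr6:128662135-128662384 (plus strand) and that of Clec4g chr8:3720652-3720901 (minus strand). Capitals mark matches on either strand to 4 motifs, which do not overlap here and were chosen after the sequences had been seen. The core of PU.1 sites was searched as GAGGAA. The core of RUNX sites was searched as TGTGGT. The half-site of SMAD proteins was searched as CAGAC. The site of AP-1 was searched as TGACTCA.
Cd207: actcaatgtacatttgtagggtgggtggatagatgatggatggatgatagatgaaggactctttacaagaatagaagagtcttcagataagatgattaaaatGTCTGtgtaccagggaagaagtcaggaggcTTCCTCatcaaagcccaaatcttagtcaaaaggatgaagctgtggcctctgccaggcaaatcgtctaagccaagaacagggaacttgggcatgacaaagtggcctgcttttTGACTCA
Clec2h: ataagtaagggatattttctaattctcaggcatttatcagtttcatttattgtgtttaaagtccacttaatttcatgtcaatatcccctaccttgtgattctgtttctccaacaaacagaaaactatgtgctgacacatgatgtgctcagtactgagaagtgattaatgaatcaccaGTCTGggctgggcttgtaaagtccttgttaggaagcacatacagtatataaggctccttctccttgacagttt
Clec4g: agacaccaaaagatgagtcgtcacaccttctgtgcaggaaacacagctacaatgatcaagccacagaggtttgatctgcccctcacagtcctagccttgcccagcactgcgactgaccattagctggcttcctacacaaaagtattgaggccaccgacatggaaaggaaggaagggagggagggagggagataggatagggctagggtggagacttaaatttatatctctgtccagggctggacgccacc

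The Cd207 window held 3 of the 4 motifs, 1 match each for PU.1, SMAD and AP-1, the last directly before the start site. Clec2h held a single SMAD match and Clec4g held none. Over all 32817 RefSeq windows of this length, the PU.1 letters were found in 23.3%, those of RUNX in 14.0%, of SMAD in 42.2% and of AP-1 in 4.46%. All 10 lectin genes had a RefSeq window, and besides Cd207 none held more than 1 of the motifs in a window. Asgr1 held 1 in each of its 2 windows, for AP-1 in the first and for PU.1 in the second. Since the motifs were chosen after the sequences had been seen, this contrast may follow from that choice. A match of letters is no evidence that a factor binds there.

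Cd207 (ENSMUSG00000034783; chromosome 6, 83671215 to 83677857, minus strand, mm10) encodes langerin, a surface receptor that binds mannose and related sugars. Replicates 1 and 2 gave 30 and 41 WT reads against 492 and 394 KO reads, which is 0.707 and 1.08 CPM in WT and 10.6 and 9.85 CPM in KO. Both KO libraries were far above both WT libraries, and the 2 KO libraries lay close to each other. The mean level was 0.892 ± 0.261 CPM for WT against 10.2 ± 0.563 CPM for KO (SD over 2 libraries), an 11.5-fold rise in the fit (log2 fold change 3.52 with an SE of 0.287, adjusted p = 0.00187 in edgeR). By size of log2 fold change it stood at place 22 of the 133 genes called as higher in KO. Between the libraries of replicate 1 alone the log2 ratio of KO over WT was 3.91, and between those of replicate 2 it was 3.19. None of its windows of 100 bases is shared with another annotated transcript, and no annotated gene overlaps it. In bulk tissue more cells that carry a transcript and more RNA per cell cannot be told apart.

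**Figure D1:**
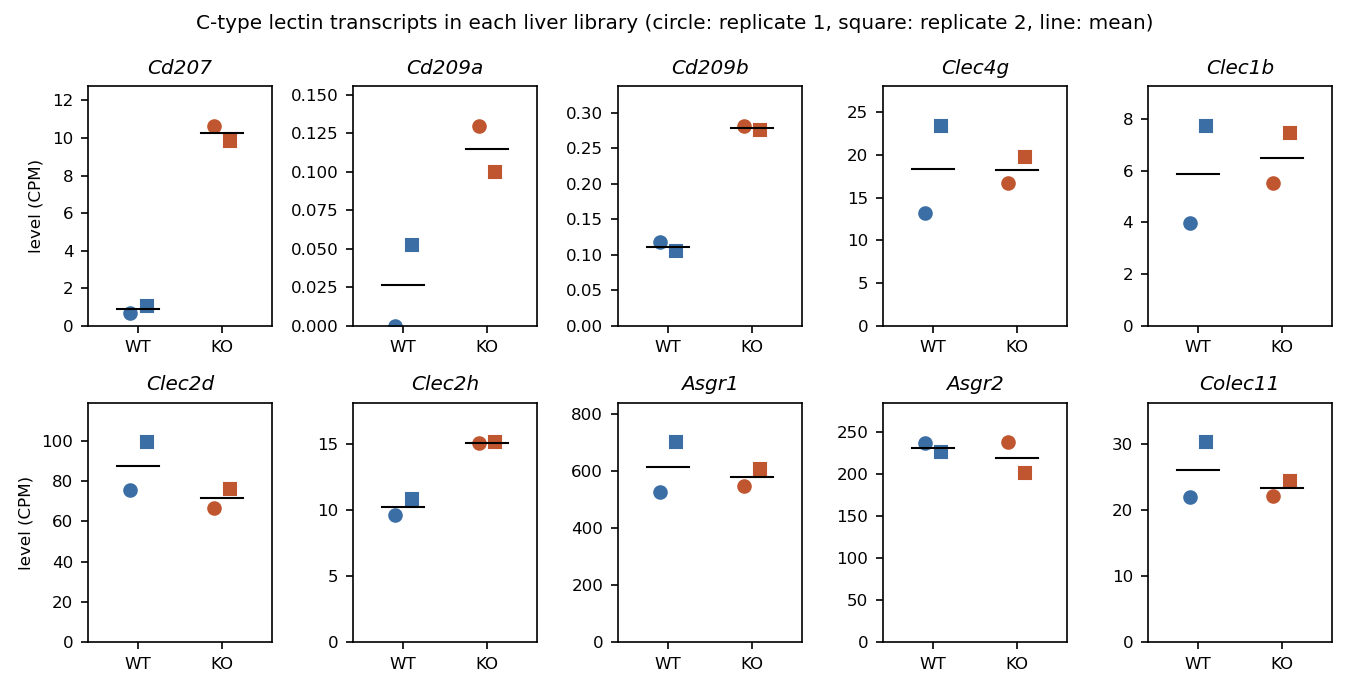
Level of each of the 10 lectin genes in CPM (vertical axes, each starting at 0) in WT and KO liver; circles are replicate 1, squares replicate 2 and lines the mean of 2 libraries. The KO libraries of Cd207 sit at 10.6 and 9.85 CPM and its WT libraries at 0.707 and 1.08 CPM, while the genotypes of Clec4g, Clec1b, Clec2d, Asgr1, Asgr2 and Colec11 overlap.

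Per base of exon, the rise moved Cd207 up the order of the 10 genes. In WT it stood at place 8, with 0.586 ± 0.172 RPKM (CPM per kilobase of exon), below Clec1b (1.15 ± 0.518) and above Cd209b (0.0527 ± 0.00429). In KO it stood at place 6 with 6.73 ± 0.370 RPKM, between Clec4g (7.40 ± 0.887) and Clec2h (5.58 ± 0.00521). The KO ranges of Cd207 and Clec4g overlapped, so their order in KO is not resolved. All other neighbours in the order had ranges over 2 libraries that did not overlap, within each genotype. These ranges leave out counting error. Cd209b and Cd209a had at most 13 reads in a library, so the order of that pair is not resolved either. In WT the order from the top was Asgr1, Asgr2, Clec2d, Colec11, Clec4g, Clec2h, Clec1b, Cd207, Cd209b and Cd209a.

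The gene next to Cd207 is Clec4f, a lectin gene that marks mouse Kupffer cells, 15028 bases away. Clec4f had 35.7 and 52.4 CPM in WT and 72.1 and 73.9 CPM in KO. Both KO libraries were higher, but its log2 fold change of 0.73 (SE 0.222) did not pass (adjusted p = 0.193). It was called without the filter on low counts (adjusted p = 0.0220) and without WT replicate 2 (0.0230). Stambp, the next tested gene on the same side at 98486 bases, had -0.34 (adjusted p = 0.605). On the other side, Tex261 at 91028 bases had -0.06 (0.089 without KO replicate 2), Nagk at 117125 bases had -0.22 and Paip2b at 127544 bases had 0.39, and none of these 3 passed.

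Likeness to Cd207 was measured for 11065 other protein-coding genes that averaged 1 CPM or more. On that scale the 5 whose log2 CPM lay nearest to that of Cd207 over the 4 libraries, each gene centred on its WT mean, were Ugt2b38, Asns, Enho, Gm15446 and Sult1e1. Their Euclidean distances ran from 0.278 for the glucuronosyltransferase gene Ugt2b38 to 0.689 for the estrogen sulfotransferase gene Sult1e1. Ugt2b38 had 0.967 and 1.26 CPM in WT and 12.9 and 14.5 CPM in KO. With 2 libraries in each genotype this measure finds genes that rose by a like amount and nothing finer. No marker on the cell type lists was among the 5. That outcome was set in advance, since the largest log2 fold change of a tested marker was 2.13 (Nkg7), far below that of Cd207.

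The related receptors of the Cd209 cluster on chromosome 8 were close to the limit of detection. Cd209a (ENSMUSG00000031494; chromosome 8, 3743397 to 3748984, minus strand) encodes the mouse protein closest in name to human DC-SIGN, a receptor of dendritic cells. It had 0 and 2 WT reads against 6 and 4 KO reads. Summed over libraries, the ratio of KO over WT was 4.67. Its 95% exact interval, for counting error alone, ran from 0.994 to 43.8 and includes equality. The 0 reads of WT replicate 1 allow a level of up to 0.0707 CPM, from 3 counts.

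Cd209b (ENSMUSG00000065987; chromosome 8, 3917655 to 3926844, minus strand), or SIGN-R1, is a receptor of marginal zone macrophages of the spleen. It had 5 and 4 WT reads against 13 and 11 KO reads, 0.118 and 0.105 CPM against 0.281 and 0.275 CPM. The KO libraries were higher, but the log2 fold change of 1.29 (SE 0.647) did not pass (adjusted p = 0.467). Of the other genes of that cluster, Cd209c had 14 and 5 WT reads against 22 and 17 KO reads and did not pass (log2 fold change 0.94, adjusted p = 0.601). Cd209d, Cd209e, Cd209f and Cd209g had at most 2 reads in any library.

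Clec4g (ENSMUSG00000074491; chromosome 8, 3707064 to 3720651, minus strand) encodes LSECtin, a receptor of the liver sinusoidal endothelium. It had 13.3 and 23.4 CPM in WT and 16.7 and 19.8 CPM in KO, with both KO libraries inside the WT range. Its log2 fold change was -0.01 (SE 0.279, adjusted p = 0.998). The WT libraries differed from each other by 0.82 on the log2 scale. The annotated gene Gm16553 overlaps Clec4g on the opposite strand, and the library kit does not mark strand, so reads of the pair cannot be told apart by strand.

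Clec1b (ENSMUSG00000030159; chromosome 6, 129397297 to 129409335, plus strand) encodes a receptor for podoplanin that activates platelets. It had 3.99 and 7.72 CPM in WT and 5.52 and 7.45 CPM in KO, again inside the WT range. Its log2 fold change was 0.15 (SE 0.337, adjusted p = 0.926), against a log2 ratio of 0.95 between the WT libraries. The annotation of Clec1b overlaps that of Clec9a on the same strand, with 1.66% of its 100-base windows shared, so its level is uncertain to that extent. The ligand gene Pdpn, which encodes podoplanin, had 10 and 11 WT reads against 13 and 16 KO reads (log2 fold change 0.37, adjusted p = 0.871). Of the kinase Syk and the adaptor Lcp2, which act below this receptor and in many blood cells, Syk had 2.50 and 2.65 CPM in WT and 5.26 and 4.97 CPM in KO (log2 fold change 0.99, adjusted p = 0.100) and Lcp2 had a log2 fold change of 0.94 (adjusted p = 0.221). Neither passed.

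Clec2d and Clec2h lie with Clec1b in the natural killer gene complex of chromosome 6. Their proteins are ligands or likely ligands of NK cell receptors and not sugar receptors. Clec2d (ENSMUSG00000030157; 129180615 to 129186534, plus strand) encodes Clr-b, which holds back NK cells through the receptor of the gene Klrb1b. It had 75.5 and 99.1 CPM in WT and 66.5 and 76.2 CPM in KO. The genotypes overlapped, and the log2 fold change of -0.29 (SE 0.202) did not pass (adjusted p = 0.635). Klrb1b had 1 and 1 WT reads against 4 and 2 KO reads, too few to test.

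Clec2h (ENSMUSG00000030364; 128662385 to 128677374, plus strand) encodes the related protein Clr-f. It had 9.67 and 10.9 CPM in WT and 15.1 CPM in each KO library. The genotypes did not overlap, and the 2 libraries within a genotype differed little. Its log2 fold change of 0.56 (SE 0.187) had an unadjusted p of 0.0182 but did not pass over all genes (adjusted p = 0.244, edgeR quasi-likelihood test). A share of 0.141% of its 100-base windows matches Clec2i. Clec2i had 10 and 8 WT reads against 8 and 4 KO reads, and Clec2e, Clec2f and Clec2g at most 6 reads in any library.

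Asgr1 and Asgr2 encode the subunits of the asialoglycoprotein receptor of hepatocytes, which takes up glycoproteins with exposed galactose. Asgr1 (ENSMUSG00000020884; chromosome 11, 70054085 to 70057894, plus strand) had 526 and 700 CPM in WT and 548 and 608 CPM in KO. Asgr2 (ENSMUSG00000040963; chromosome 11, 70092644 to 70106187, plus strand) had 237 and 226 CPM in WT and 238 and 201 CPM in KO. Both genes overlapped between genotypes, with log2 fold changes of -0.09 (SE 0.197, adjusted p = 0.927) and -0.08 (SE 0.176, adjusted p = 0.927). Per base of exon, the Asgr1 level was 2.20 and 3.06 times that of Asgr2 in WT replicates 1 and 2 and 2.28 and 2.99 times in KO replicates 1 and 2. This ratio was higher in both libraries numbered 2 than in both numbered 1. St6gal1, the liver enzyme that adds the sialic acid hiding galactose, had a log2 fold change of 0.21 (adjusted p = 0.696).

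Colec11 (ENSMUSG00000036655; chromosome 12, 28594173 to 28623377, minus strand) encodes a soluble collectin that starts the lectin pathway of complement. It had 21.9 and 30.2 CPM in WT and 22.2 and 24.4 CPM in KO, with both KO libraries inside the WT range (log2 fold change -0.16, SE 0.213, adjusted p = 0.846). Its partner collectin gene Colec10 had 13.0 and 18.7 CPM in WT and 11.8 and 12.2 CPM in KO (log2 fold change -0.40, adjusted p = 0.529). The mannose-binding lectin genes Mbl1 and Mbl2 had 0.30 and -0.54 (adjusted p = 0.544 and 0.395).

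For 5 of the 9 tested genes (Clec4g, Clec1b, Clec2d, Asgr1 and Colec11) the WT libraries differed from each other by more than the genotypes did, and these 5 had their highest level in WT replicate 2. In WT 7 of 9 were higher in replicate 2 than in replicate 1, and in KO 6 of 9. Taken over all tested genes, WT replicate 2 stood above WT replicate 1 by a median of 0.024 on the log2 scale. Of 16 tested markers of sinusoidal endothelium, the cell type of Clec4g, 14 were also higher in WT replicate 2 (median log2 ratio 0.59). So were 13 of 13 Kupffer cell markers (0.63). In KO the summed level of the endothelial markers was lower in replicate 2 (265 CPM) than in replicate 1 (349 CPM). Clec4g was higher in KO replicate 2 than in KO replicate 1 (log2 ratio 0.25). The summed Kupffer cell markers were also higher there, at 396.1 against 369.1 CPM. The part of cell content in the replicate difference was not tested.

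**Figure D2:**
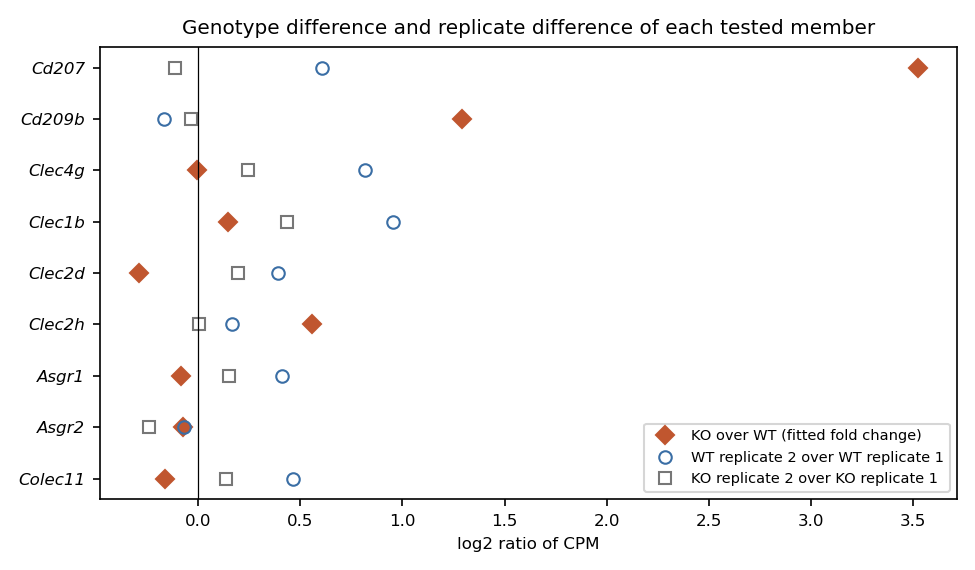
Log2 ratio of CPM (horizontal axis) for each of the 9 tested lectin genes: the fitted KO over WT difference (diamonds), WT replicate 2 over 1 (open circles) and KO replicate 2 over 1 (open squares). Cd207 has a genotype difference of 3.52 against a WT replicate difference of 0.61, whereas for Clec1b the genotype difference is 0.15 and the WT replicate difference 0.95.

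Among 63 C-type lectin genes on the lists, the 10 included, 35 could be tested and Cd207 alone was called (2.86% of them, against 1.91% of all tested genes). The other 26 tested lectins had 0 calls by edgeR, DESeq2 or limma-voom, and 7 of the 35 had an unadjusted p under 0.05, as did 13.0% of all tested genes. The median log2 fold change of the 35 was 0.03, against 0.01 over all tested genes. On the list of myeloid and dendritic lectins 13 of 24 genes could be tested, of which 11 had a positive log2 fold change (median 0.57). Next in size to Cd207 were the macrophage and dendritic receptor genes Clec4a1 (log2 fold change 1.54, SE 0.455, adjusted p = 0.178) and Clec4a3 (1.44, SE 0.415, adjusted p = 0.169). Ly75, an antigen uptake receptor of dendritic cells, had 0.84 (adjusted p = 0.285). On the endothelial list 5 of 6 tested genes had a negative value (median -0.19), the scavenger receptor Colec12 with -0.64 (adjusted p = 0.211) and the surface protein Cd93 with -0.62 (adjusted p = 0.482) among them. Of the 8 soluble lectins 6 were tested (median -0.39). The list of the natural killer complex held 13 lectins and left out those placed on other lists, Clec1b, Clec2d and Clec2h among them. Of these 13 only Klrk1, which encodes the activating receptor NKG2D, had enough reads (log2 fold change 0.66, adjusted p = 0.630).

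**Figure D3:**
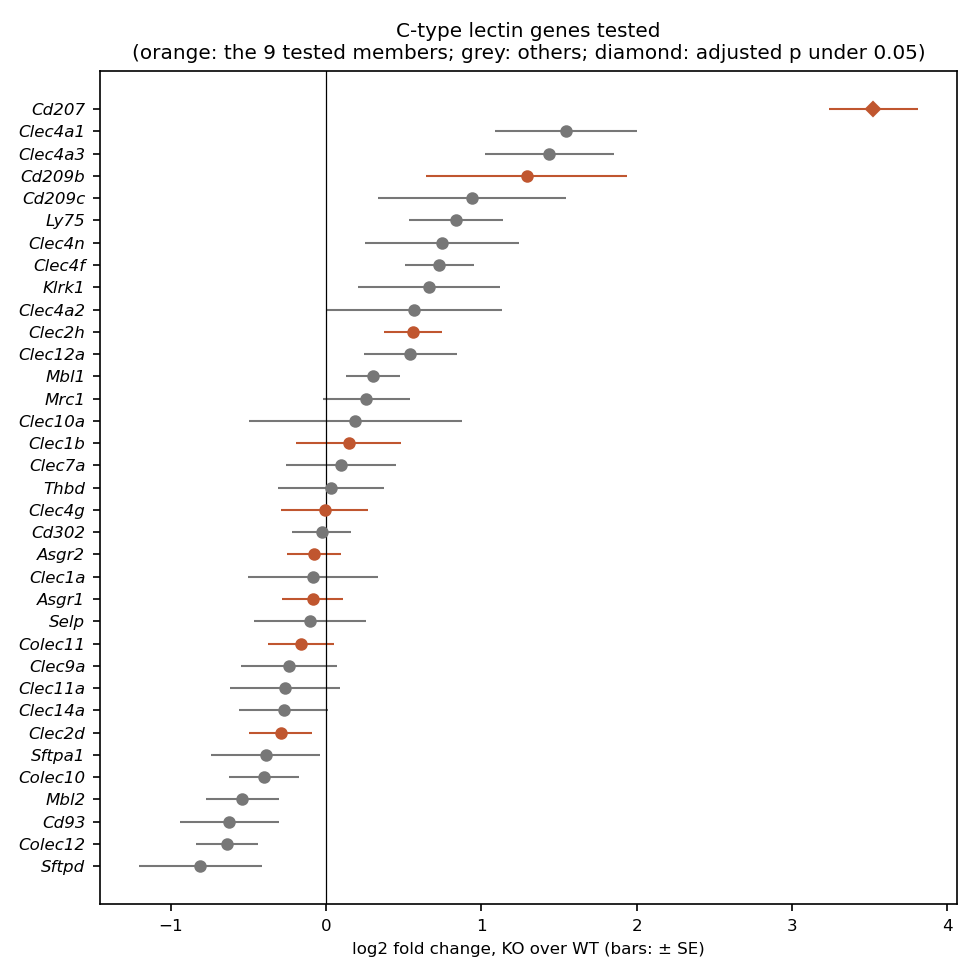
Log2 fold change of KO over WT with its SE (horizontal axis) for the 35 C-type lectin genes that could be tested, the 9 tested members in orange and the others in grey; the diamond marks an adjusted p under 0.05. Cd207 at 3.52 lies beyond Clec4a1 at 1.54, and the remaining genes run from Clec4a3 at 1.44 down to Sftpd at -0.81.

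On the list of ligands, partners and signalling genes of these lectins 12 of 13 genes could be tested and 0 were called by edgeR, DESeq2 or limma-voom. In edgeR 3 had an unadjusted p under 0.05 (median log2 fold change 0.10). Without the filter on low counts edgeR called 1 gene of this list, Syk, as higher. On the list of 10 genes that regulate langerin or the cells that carry it, all but Irf4 could be tested, 0 were called by any of these tools and 4 had an unadjusted p under 0.05 (median 0.50). Axl, a receptor kinase of Langerhans cells and macrophages, had 8.61 and 9.09 CPM in WT and 15.6 and 12.7 CPM in KO (log2 fold change 0.68, SE 0.201, adjusted p = 0.181). Tgfbr1, a receptor for TGF-β, which Langerhans cells need, had 0.50 (adjusted p = 0.279) and the signal transducer Smad3 0.67 (adjusted p = 0.303). Bmp7, which encodes a ligand of the same superfamily, had -0.81 (adjusted p = 0.351). With single libraries left out, the log2 fold change of Smad3 ran from 0.41 to 0.99. A fit with a replicate block called 4 of the 9 tested genes of this list, Axl, Smad3 and Tgfbr1 as higher and Bmp7 as lower. It called 3 of the 12 on the list of ligands and partners, Cd44, Lcp2 and Syk, all as higher, and 19.7% of all tested genes.

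Markers of the cells that can carry langerin were examined next. Of 15 dendritic cell markers 12 were tested and 0 were called by edgeR, by DESeq2 or by limma-voom. The edgeR fit with a replicate block called 3 of the 12 (Cd74, Cd83 and H2-Ab1, all higher) and 19.7% of all tested genes. In edgeR without that block these markers had a median log2 fold change of 0.33, 2 of them at an unadjusted p under 0.05. Their summed level was 75.9 and 101.2 CPM in WT and 121 CPM in each KO library, most of it from Cd74, which macrophages and B cells also express. Xcr1, a receptor of the cross-presenting dendritic cells, had 9 and 14 WT reads against 12 and 15 KO reads. Clec9a, of the same cells, had 82 and 60 WT reads against 63 and 65 KO reads (log2 fold change -0.24, adjusted p = 0.846). Itgax, which encodes CD11c, had 21 and 27 WT reads against 31 and 49 KO reads (0.65, adjusted p = 0.659). In each KO library Cd207 had more reads than these 3 genes together, and fewer than Cd74 or H2-Ab1, a class II gene shared with macrophages and B cells. The maturation marker Cd83 had the smallest p of the list, with 31 and 37 WT reads against 81 and 68 KO reads (log2 fold change 1.02, adjusted p = 0.245). Both KO libraries were also above both WT libraries for the integrin gene Itgae (0.98, adjusted p = 0.556), for H2-Ab1 (0.40, adjusted p = 0.421) and for Cd74 (0.54, adjusted p = 0.371). They were below for Batf3, a factor that cross-presenting dendritic cells need (-1.25, adjusted p = 0.402). Itgae (7 and 9 WT reads against 15 and 19 KO reads) passed the filter only through its KO libraries, where it is higher. Batf3 (17 and 25 WT reads against 10 and 9 KO reads) passed it only through its WT libraries, where it is higher.

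Of the Langerhans cell markers 7 were tested and 0 were called by edgeR or limma-voom, while DESeq2 called 1, Cdh1. The edgeR fit with a replicate block called 3 of the 7, Cdh1 and Ly75 as higher and Cd1d1 as lower. In edgeR without that block these markers had a median of 0.70, 3 of them at an unadjusted p under 0.05. Their summed level was 178.8 and 177.2 CPM in WT and 155.5 and 142.8 CPM in KO, nearly all of it from Cd1d1, which hepatocytes also express. Epcam, which Langerhans cells share with bile duct cells, had 46 and 33 WT reads against 31 and 36 KO reads (log2 fold change -0.32, adjusted p = 0.832). The adhesion gene Cdh1, which hepatocytes also express, had 6.30 and 2.78 CPM in WT and 19.2 and 9.95 CPM in KO (log2 fold change 1.68, SE 0.432, adjusted p = 0.122). Its KO libraries were above both WT libraries, and libraries of the same genotype also differed widely. This gene was called as higher by DESeq2 (adjusted p = 0.00107), without the filter on low counts (7.63e-09) and when any single library was left out (at most 0.0303). In these 4 fits its log2 fold change lay between 1.13, with KO replicate 1 left out, and 2.39, with WT replicate 1 left out.

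Kupffer cell markers were higher alongside Cd207. Both KO libraries stood above both WT libraries for 13 of 13 tested markers, against 21.6% of all tested genes. These markers had a median log2 fold change of 0.83, and their summed level was 170.6 and 257.3 CPM in WT and 369.1 and 396.1 CPM in KO. The scavenger receptor gene Marco rose from 3.28 and 3.91 CPM in WT to 10.1 and 12.5 CPM in KO (log2 fold change 1.66, SE 0.232, adjusted p = 0.0155). Csf1r, the receptor for the growth factor of macrophages, was also called (0.97, adjusted p = 0.0478). Its adjusted p in edgeR was 0.0670 when WT replicate 1 was left out, 0.0842 when KO replicate 1 was left out and 0.0738 with library size alone, so this call was lost in each. Timd4, a receptor of resident Kupffer cells, had 1.35 (adjusted p = 0.0520). It was called with DESeq2 size factors (adjusted p = 0.0488), by DESeq2 (0.00730), without the filter (0.00120) and when any single library was left out (0.0137 to 0.0496). The number of these 13 markers called was 2 in edgeR and limma-voom, 3 with DESeq2 size factors, 4 in DESeq2, 11 without the filter, and 1 with library size alone. With a replicate block, a fit that called 19.7% of all tested genes, the number was 12. It was 12 when WT replicate 2 was left out and 2 to 4 when any other library was. As given above, these markers also differed between the WT libraries, by a median of 0.63. The part of Kupffer cell content in the rise of Cd207 was not tested; the log2 fold change of Cd207 was 3.52, and the highest on this list was 1.66.

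Markers of the cell types that carry the other lectins had 0 calls by edgeR and limma-voom, and DESeq2 called Lyve1 and the hepatocyte gene Cps1. Of 16 sinusoidal endothelial markers 1 had an unadjusted p under 0.05 in edgeR (median log2 fold change -0.05), with summed levels of 275 and 356 CPM in WT and 349 and 265 CPM in KO. That gene was Lyve1, a hyaluronan receptor, with 3.44 and 4.36 CPM in WT and 1.28 and 1.67 CPM in KO (-1.40, adjusted p = 0.0623). It was called as lower by DESeq2 (adjusted p = 0.00893), without the filter (0.00118), without WT replicate 1 (0.00237) and without KO replicate 2 (0.0105). Of 10 hepatocyte markers 1 had an unadjusted p under 0.05 (median 0.20); that was Cps1, an enzyme of the urea cycle, with a log2 fold change of 0.74 (adjusted p = 0.0821 in edgeR, 0.0166 in DESeq2 and 0.0121 in edgeR without the filter). Of 10 stellate cell markers 2 had one, 9 had a negative log2 fold change and 1 a positive one (median -0.38). For 4 of these 10 both KO libraries stood below both WT libraries, as for 20.4% of all tested genes. The edgeR fit with a replicate block called 2 of 10 stellate and 2 of 16 sinusoidal endothelial markers as lower. It called 3 of 10 hepatocyte markers as higher, and 19.7% of all tested genes. Of 10 lymphocyte and NK markers 5 could be tested, with 1 at an unadjusted p under 0.05; the cytotoxic granule gene Nkg7 had 3 and 3 WT reads against 16 and 13 KO reads (2.13, adjusted p = 0.217), and it was tested only through its KO reads. Of 6 platelet and megakaryocyte markers 3 could be tested and 0 had an unadjusted p under 0.05, and Gp6 had 0 reads in every library. Which cells carried Clec1b in these libraries was not tested.

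**Figure D4:**
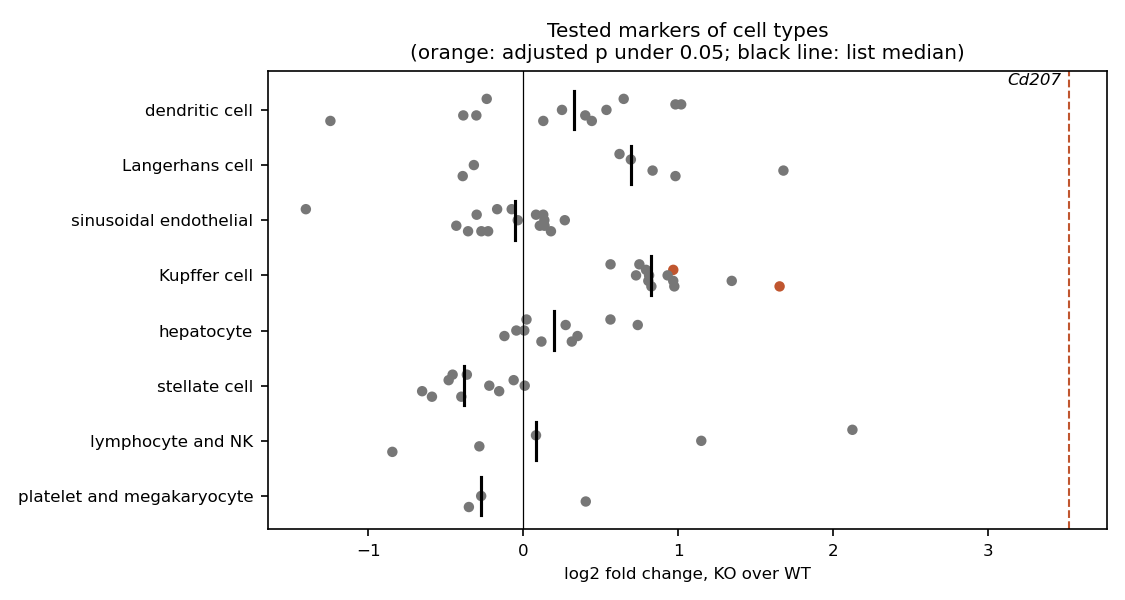
Log2 fold change of KO over WT (horizontal axis) for the tested markers of 8 cell types; each point is a gene, orange where its adjusted p is under 0.05, and black lines are list medians. The dashed line is Cd207 at 3.52, and the Kupffer cell markers have a median of 0.83 while the sinusoidal endothelial markers have one of -0.05.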

How the data were processed

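Poly(A) RNA of liver was sequenced in 4 libraries, 2 WT and 2 KO. The authors deposited raw whole-number read counts, 1 for each Ensembl gene. TopHat2 2.1.1, HTSeq 0.6.0 and mm10 are named per the submitters' processing notes, with no counting options or annotation release. Symbols, positions and exon lengths came from GENCODE M21 (35449 of 37315 identifiers matched), and promoters from RefSeq.

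Counts were filtered with filterByExpr (minimum count 10, minimum total 15), scaled by TMM and tested in edgeR 4.0.16 (R 4.3.3) with the robust quasi-likelihood F test, two-sided, genotype as the only term, and Benjamini-Hochberg adjustment over 13836 genes. SE was derived as the size of the fold change on the log2 scale over root F. RPKM is TMM-scaled CPM per kilobase of exon union. Alternatives used DESeq2 1.42.0 and limma 3.58.1. No 2 libraries agreed within sampling noise (chi-square per degree of freedom at least 86.5). On simulated counts for KO against WT (13592 genes, 3 runs) 53.3% of 2-fold and 98.3% of 4-fold changes were recovered, with 4.73% false calls. The changes were planted only in genes that averaged 1 CPM or more, and every gene was given the spread typical of its level. These rates therefore do not cover genes at lower levels, such as Cd209b. The simulated libraries were drawn independently, whereas same-numbered libraries of the data shared deviations from their group means (r = 0.427 across genes). The rates do not cover that either.

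The 10 genes and all lists were chosen with earlier results of these data known. Named were the 10 genes, Fto, called list members, up to 4 list members with the smallest p, and the 5 genes nearest to Cd207 (log2 CPM, prior count 2). Neighbours of Cd207, low-count relatives, and Clec9a, Xcr1, Batf3, Itgae, H2-Ab1, Itgax, St6gal1, Pdpn, Epcam and Klrb1b were named after their values were seen. No protein sequence was used here. A listed marker is not reported here.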

Additional observations from a re-analysis of the deposited data

How the results depend on the processing

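Cd207 was called under every alternative, with log2 fold changes from 3.25 (without WT replicate 1) to 3.84 (without WT replicate 2). Where a library is left out, the lone library of a genotype is assumed to vary like the 2 of the other. Of the 10 genes the number called was 1 under each alternative except the fit with a replicate block, where it was 3, with Clec2h higher and Clec2d lower (adjusted p = 0.00427 and 0.0327, edgeR); leaving out single libraries gave 1 to 1. That fit called 10 of the 35 tested C-type lectins, and 19.7% of all tested genes. Over all listed C-type lectins the other alternatives gave 1 call, or 2 with no filter and without WT replicate 2, where Clec4f was added. No label ties libraries of equal number to a shared animal or batch, and the deviations of same-numbered libraries from their group means correlated with r = 0.427 across genes. Over all genes the 264 calls became 829 with no filter on low counts, 574 with the DESeq2 Wald test, 2729 with the replicate block, 176 with library size alone, and 460 to 633 when single libraries were left out. Signs of small differences reversed. The log2 fold change of Clec4g was 0.019 with library size alone, 0.047 with limma-voom and 0.039 with the replicate block. With single libraries left out, it ran from -0.36 to 0.45 for Clec4g, from -0.25 to 0.69 for Clec1b, from -0.28 to 0.13 for Asgr1, from -0.20 to 0.031 for Asgr2, from -0.38 to 0.080 for Colec11, from -0.23 to 0.089 for Tex261 and from -0.22 to 0.56 for Xcr1. None of these reversed values passed the test, and the cause was not tested. Depth limits Cd209a and Cd209b, which had at most 13 reads in a library.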
